A study of Mus musculus with 4 samples.

Results

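The small leucine-rich proteoglycans (SLRPs) described here were decorin (Dcn), biglycan (Bgn), asporin (Aspn), fibromodulin (Fmod), lumican (Lum), prolargin (Prelp), keratocan (Kera), osteomodulin (Omd), osteoglycin (Ogn) and podocan (Podn). These 10 genes were taken by symbol, and all 10 were present among the 32285 genes counted in single cells and among the 19465 genes with probes on the tissue sections. They were followed across cell types and tissue spots that were gated on marker genes from which all 10 were left out.

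All tissue came from the tenotomy site of mice after burn/tenotomy (BT), in which a dorsal burn and transection of the Achilles tendon lead to heterotopic ossification (HO), bone that forms within soft tissue. Single-cell RNA sequencing (scRNA-seq) covered unsorted cells of mice carrying Hoxa11CreER, ROSA-LSL-TdTomato and Hif1a fl/fl, given tamoxifen at 75 mg/kg daily for 5 days with a washout of 9 days before surgery by the labels (1 week in the study's methods). These cells were collected 7 days after BT by the study's account, and the labels give the mice no age. The Hoxa11 promoter limits Cre to mesenchyme of the zeugopod, the segment between knee and ankle, so other cell types keep Hif1a. One library pooled replicates 1 and 2 and the other held replicate 3, and paired values below are given in that order, as the pooled and the replicate 3 library. Visium spatial transcriptomics covered sections A1 and B1 from wild-type C57BL/6 mice aged 10 weeks, at 7 days after BT. All 4 samples were injured, and Cre-negative littermates and uninjured tissue were not analysed here, so no genotypes and no times were compared.

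SLRPs are secreted proteins with a core of leucine-rich repeats that bind fibrillar collagen and set how wide and how regularly spaced its fibrils grow. Class I (Dcn, Bgn, Aspn) also binds TGF-β and BMP ligands, and Dcn and Bgn carry chondroitin or dermatan sulfate chains. Class II (Fmod, Lum, Prelp, Kera, Omd) mostly carries keratan sulfate, Ogn belongs to class III and Podn to a more distant class. In tendon, Dcn, Bgn, Fmod and Lum are the SLRPs best known for shaping the fibril, and Bgn and Fmod for the niche of tendon progenitors.

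The genes lie in clusters in the mouse genome (mm10/GRCm38). Dcn, Lum and Kera stood in a row on chromosome 10 from 97479500 to 97613688, with gaps of 47.3 kb between Dcn and Lum and 34.3 kb between Lum and Kera. Aspn, Omd and Ogn stood in a row on chromosome 13 from 49544443 to 49624501, inside the gene Cenpp of the opposite strand, of which an exon overlaps Aspn. Prelp and Fmod were 107 kb apart on chromosome 1, while Bgn on chromosome X (73483601 to 73495936) and Podn on chromosome 4 (108014793 to 108031954) stood apart from the other members. The sequences below are the 250 bases before the start of 4 of the 6 genes whose levels differed between the tendon-lineage-like and the adventitial-fibroblast-like cells described later, from RefSeq on GRCm38.p6, 5′ to 3′ on the strand of the gene. Capitals mark CANNTG, the E-box letters read by basic helix-loop-helix factors such as scleraxis, searched on both strands. The windows are Fmod at chr1:134037004-134037253 (plus strand), Ogn at chr13:49607765-49608014 (plus strand), Aspn at chr13:49544193-49544442 (plus strand) and Podn at chr4:108031955-108032204 (minus strand).
Fmod: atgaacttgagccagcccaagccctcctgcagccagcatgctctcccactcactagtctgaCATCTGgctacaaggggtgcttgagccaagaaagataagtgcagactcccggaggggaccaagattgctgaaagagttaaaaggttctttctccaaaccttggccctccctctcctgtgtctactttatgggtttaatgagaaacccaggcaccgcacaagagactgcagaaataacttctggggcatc
Ogn: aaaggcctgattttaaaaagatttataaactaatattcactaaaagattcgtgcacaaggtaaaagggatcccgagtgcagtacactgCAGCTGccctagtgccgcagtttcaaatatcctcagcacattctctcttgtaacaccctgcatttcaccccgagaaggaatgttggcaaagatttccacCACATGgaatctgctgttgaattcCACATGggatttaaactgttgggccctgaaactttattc
Aspn: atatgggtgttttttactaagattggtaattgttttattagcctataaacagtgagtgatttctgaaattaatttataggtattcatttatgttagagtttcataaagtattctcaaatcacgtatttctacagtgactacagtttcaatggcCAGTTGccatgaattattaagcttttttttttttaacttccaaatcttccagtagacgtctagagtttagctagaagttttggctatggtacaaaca
Podn: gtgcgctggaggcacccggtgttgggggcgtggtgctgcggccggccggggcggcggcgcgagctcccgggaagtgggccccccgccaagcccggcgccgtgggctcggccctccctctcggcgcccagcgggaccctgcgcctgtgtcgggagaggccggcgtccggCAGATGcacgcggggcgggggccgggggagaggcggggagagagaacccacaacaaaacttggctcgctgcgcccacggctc
Fmod, Aspn and Podn each held 1 CANNTG and Ogn held 3, where 66.2% of 32536 promoter windows of this length held at least 1 and 12.2% held at least 3. The hypoxia-response letters ACGTG were found in the Aspn window, as in 16.7% of windows, and GCGTG in the Podn window, as in 28.3%. TATAAA, found in 12.3% of windows, was present in Aspn and Ogn. Podn had a window 2 at chr4:108030987-108031236, which overlaps its own annotated gene and is not printed. It held 3 CANNTG and 1 GCGTG. The other two genes that differed, Kera and Prelp, have windows that overlap their own annotated gene and are not printed, and neither window held any of these 4 motifs. GC content was 51.2% for Fmod, 42.0% for Ogn, 30% for Aspn and 42.4% for Kera, which were higher in tendon-lineage-like cells, and 78.0% for Podn and 55.6% for Prelp, which were lower, beside a median of 52.4% over all windows. These matches describe letters and not binding.

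Of 2303 and 1266 barcodes, 1276 and 795 cells passed the filters, with 25490855 and 19424554 unique molecular identifiers (UMIs) in all, and 3504 and 3185 spots passed in A1 and B1. Cells were called mesenchyme-like, pericyte-like and so on when at least 40% of the markers of a type were detected and no other type came within 20 percentage points. For pericyte-like cells no lead over mesenchyme was required, and having no UMI of Pdgfra decided instead. This gave 355 and 283 mesenchyme-like cells, 101 and 55 pericyte-like cells (pericytes and smooth muscle, with no UMI of Pdgfra), 202 and 118 macrophage-like cells, 87 and 46 endothelial-like cells, 120 and 38 T- or NK-like cells, 61 and 44 keratinocyte-like cells and 20 and 11 Schwann-like cells. 256 and 150 cells stayed without a name. Hif1a, the floxed gene, was measured at 469 and 363 counts per 1000000 UMIs of a group of cells (CPM) in mesenchyme-like cells, but a 3′ tag does not show whether a part elsewhere in the gene was deleted. Labels do not say that the samples are separate mice, and 1 barcode was shared by the libraries. The main fits take out the overall difference between samples. Their p-values thus measure only how far differences between the gated classes of a fit vary from sample to sample. They cannot be read as the spread between mice.

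Mesenchyme-like cells carried the highest level of every SLRP in both libraries among the gated types, except for Omd in the replicate 3 library, where 2 UMIs in Schwann-like cells gave a higher level. In these cells Dcn was measured at 4848 and 5305 CPM, Bgn at 3512 and 3447 CPM, Lum at 2057 and 2112 CPM and Aspn at 1533 and 1815 CPM. Together the SLRPs made up 1.40% and 1.46% of all UMIs of mesenchyme-like cells, against 0.171% and 0.228% in pericyte-like cells. Fmod (1079 and 759 CPM) and Ogn (616 and 806 CPM) came next, followed by Kera at 144 and 172 CPM and Prelp at 122 and 125 CPM. Podn (47.7 and 35.8 CPM) and Omd (14.8 and 12.5 CPM) were the lowest. The order of the levels was the same in both libraries but for Fmod and Ogn, which changed places, and Kera and Prelp lay within 1.5 times of each other. Each transcript gives 1 tag at its 3′ end whatever its length, so these levels are on a molecule scale, and tags differ between genes in how well they are captured. Dcn held 34.7% and 36.4% of the SLRP UMIs and Bgn 25.1% and 23.6%.

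In the comparison of mesenchyme-like cells with the mean of the other gated cell types, all 10 SLRPs were higher by edgeR's quasi-likelihood test with Benjamini-Hochberg adjustment over 12262 genes, where 33.2% of all genes tested were higher, and none was lower, where 16.9% of all genes were. The median of the log2 fold changes was 7.56 over the SLRPs and 0.11 over all genes. For class I, the log2 fold change was 7.52 (SE 0.40) for Dcn, 6.23 (SE 0.15) for Bgn and 7.58 (SE 0.17) for Aspn. For class II it was 8.84 (SE 0.17) for Fmod, 8.65 (SE 0.19) for Lum, 6.18 (SE 0.36) for Prelp and 3.76 (SE 0.39) for Omd. Ogn reached 8.98 (SE 0.22) and Podn 7.55 (SE 0.43, with 4.48 and 5.48 when the pooled or the replicate 3 library was left out and a prior count of 2 was added), and the adjusted p ranged over the SLRPs from 2.43e-15 for Fmod to 4.99e-07 for Omd. Kera had 0 to 1 UMI in every other gated type of the fit, so its fold against them is given only as a bound: mesenchyme-like cells exceeded pericyte-like cells at least 98.6- and 69.2-fold, with pericyte-like cells set to 3 counts per library. Podn had no UMI in endothelial-, keratinocyte- and T- or NK-like cells of either library, so the size of its fold is also uncertain. Of all kept cells, the mesenchyme-like ones held 84.0% (Prelp) to 97.2% (Kera) of the UMIs of each SLRP in the pooled library and 91.4% to 99.4% in the replicate 3 library. Over all genes they held 14270652 of 25490855 kept UMIs in the pooled library and 12522150 of 19424554 in the replicate 3 library. Cells without a name held Dcn at 1087 and 747 CPM and Bgn at 929 and 673 CPM. In the pooled library the 26 of these cells with the most UMIs of a gene held 98.8% of their Dcn and 98.0% of their Bgn. Their median cell there had 0 CPM of both.

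**Figure D1:**
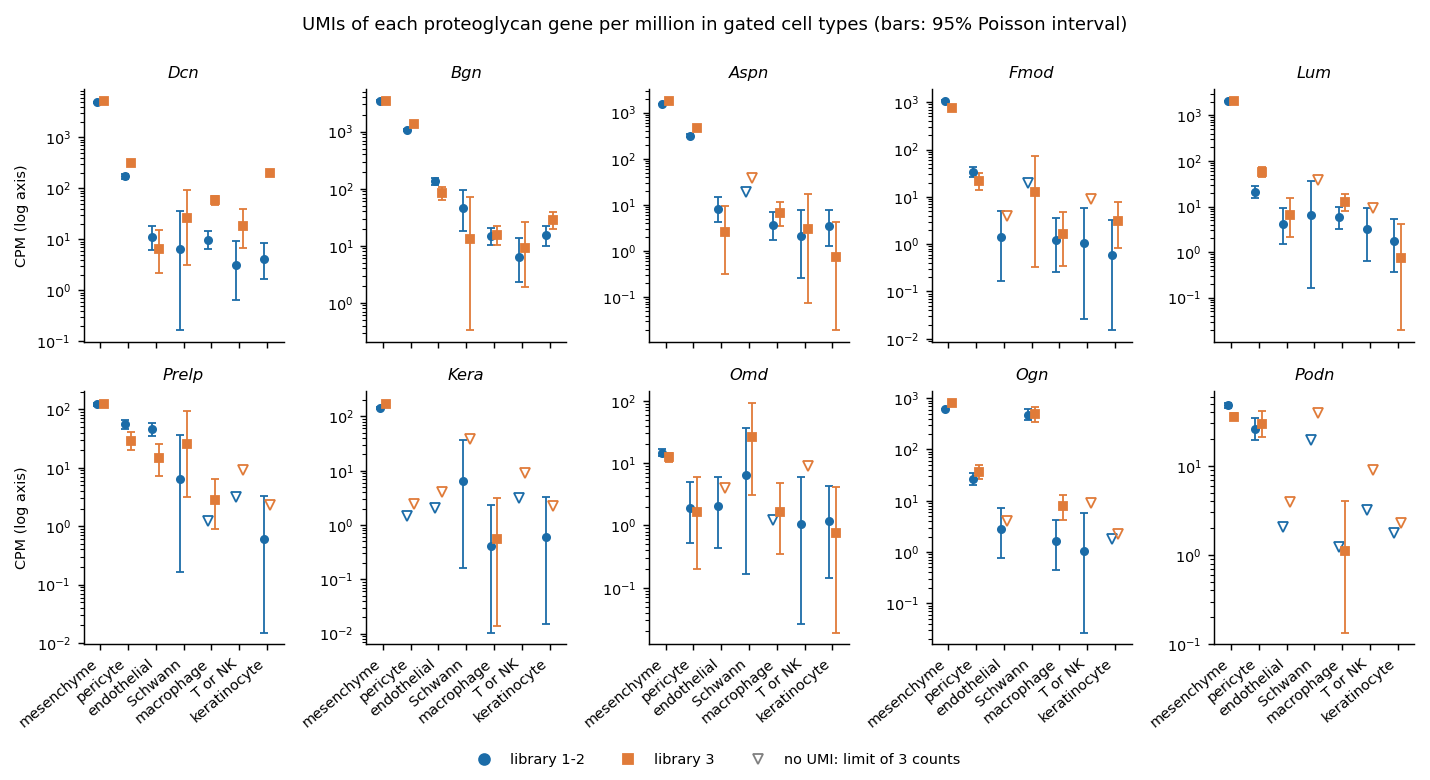
CPM of each SLRP (log axis) in 7 gated cell types, 1 point per library with its exact 95% Poisson interval, and an open triangle at the level of 3 counts where no UMI was found. Mesenchyme-like cells stand at the top for every gene but Omd, Bgn (1062 and 1337 CPM) and Aspn are also high in pericyte-like cells, and Ogn in Schwann-like cells (480 and 492 CPM) is near its mesenchymal level.

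Pericyte-like cells were the other gated type with several SLRPs. Bgn was measured there at 1062 and 1337 CPM, Aspn at 315 and 460 CPM and Dcn at 172 and 310 CPM. Prelp (55.4 and 29.1 CPM) and Podn (26.2 and 29.9 CPM) were closer to their mesenchymal levels than Fmod (33.0 and 21.6 CPM) was. The mesenchyme-to-pericyte ratio of CPM was 1.82 and 1.20 for Podn, 3.31 and 2.58 for Bgn, 2.21 and 4.30 for Prelp and 4.87 and 3.95 for Aspn, but 28.1 and 17.1 for Dcn, 32.7 and 35.1 for Fmod and 98.5 and 36.9 for Lum. Against the mean of the gated types other than mesenchyme, 8 of 10 SLRPs were higher in pericyte-like cells (all but Kera and Omd), where 26.2% of all genes were higher, and none was lower, where 15.3% of all genes were. The log2 fold change was 6.53 (SE 0.21) for Aspn and 5.58 (SE 0.17) for Bgn, with edgeR adjusted p of 7.33e-13 and 2.85e-13. It was 3.40 (SE 0.52) for Dcn and 3.19 (SE 0.36) for Lum. Podn (8.42) and Prelp (5.51) came to 4.97 and 3.65 without the pooled library and to 5.48 and 4.71 without the replicate 3 library. The value of Podn is set against types with no UMI of it in either library, namely endothelial-, keratinocyte- and T- or NK-like cells. As a bound, pericyte-like cells exceeded endothelial-like cells at least 12.6- and 7.51-fold in Podn, with endothelial-like cells set to 3 counts per library.

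The pericyte-like UMIs of Bgn and Aspn came from most cells, and those of Dcn, Lum and Ogn from few. At an equal depth of 5000 UMIs, Bgn was detected in 90.5% and 89.3% of pericyte-like cells and Aspn in 62.7% and 60.3%, while Dcn was detected in 18.9% and 11.7%. In the replicate 3 library 1 cell held 50.9% of the pericyte-like UMIs of Dcn, 55.1% of those of Lum and 72.7% of those of Ogn. Markers of mesenchyme summed to 9772 and 11157 CPM in pericyte-like cells and to 45566 and 47761 CPM in mesenchyme-like cells. Their part in these levels was not tested.

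Schwann-like cells stood out by Ogn, a class III member. Ogn was measured at 480 and 492 CPM in these cells, from 74 and 38 UMIs, and made up 86.0% and 82.6% of their SLRP UMIs against 4.4% and 5.5% in mesenchyme-like cells. It was detected in 9 of 20 and 5 of 11 cells, with median depths of 4449 and 6461 UMIs, and 1 cell held 33.8% and 52.6% of the UMIs. Too few Schwann-like cells were present for a fit. In endothelial-like cells Bgn was measured at 136 and 83.5 CPM and Prelp, which anchors basement membranes to the matrix below, at 45.8 and 14.6 CPM. In the replicate 3 library 95.8% of the 264 Dcn UMIs of keratinocyte-like cells and 85.8% of the 106 Dcn UMIs of macrophage-like cells came from 1 cell each, so the higher Dcn levels of these types in that library rest on 1 cell each.

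Among mesenchyme-like cells, some SLRPs were near universal and others were held by few cells. Thinned to 5000 UMIs, Dcn was detected in 97.8% and 98.4% of mesenchyme-like cells, Bgn in 99.7% and 98.3%, Lum in 93.9% and 92.8% and Aspn in 87.4% and 85.2%. Fmod was detected in 59.8% and 54.5%, Kera in 21.2% and 25.0% and Omd in 6.74% and 7.11%. In T- or NK-like cells, which should lack these genes, the thinned share was 1.44% and 10.4% for Dcn and 3.23% and 3.30% for Bgn, and 0 in both libraries for Kera, Prelp and Podn. Median depths were 41604 and 44558 UMIs in mesenchyme-like and 6877 and 8511 UMIs in T- or NK-like cells, of which 28 and 5 cells were too shallow to be thinned. Before thinning, the shares in mesenchyme-like cells were 71.5% and 67.8% for Fmod and 35.2% and 40.6% for Kera. The tenth of mesenchyme-like cells with the most UMIs of a gene held 75.5% and 71.5% of the UMIs of Kera and 48.4% and 50.6% of those of Fmod, but 22.0% and 22.6% of those of Bgn.

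Mesenchyme-like cells were divided further by markers into tendon-lineage-like (60 and 51 cells), injury-mesenchyme-like (86 and 72), chondrogenic-like (29 and 22) and adventitial-fibroblast-like cells (46 and 51), beside a few lining-like cells and 124 and 83 others. Tendon-lineage-like cells held 2221 and 2314 CPM of Tnmd and 501 and 445 CPM of Scx, which were among their gate markers. 87 of 355 and 75 of 283 mesenchyme-like cells passed more than 1 of these gates and went to the nearest, so the groups are ranges of related cells. The chondrogenic-like cells of the replicate 3 library had little of the cartilage genes of their gate, with Col2a1 at 184 CPM against 2176 CPM in the pooled library and Col9a1 at 22.5 against 295 CPM, while Acan was at 1540 and 1716 CPM, so the name fits them less. SLRPs made up 1.76% and 1.88% of UMIs in tendon-lineage-like cells, 1.45% and 1.67% in adventitial-fibroblast-like cells and 1.27% and 1.26% in injury-mesenchyme-like cells.

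Each of these groups had its own mixture of SLRPs. Fmod was ordered from 2808 and 2261 CPM in tendon-lineage-like cells through 1606 and 949 CPM in chondrogenic-like cells and 674 and 416 CPM in injury-mesenchyme-like cells to 73.4 and 126 CPM in adventitial-fibroblast-like cells. Kera was measured at 577 and 610 CPM in tendon-lineage-like cells and at no more than 74.7 CPM in chondrogenic-like, injury-mesenchyme-like and adventitial-fibroblast-like cells. The 10 lining-like cells of the pooled library, too few to be compared, also held Kera (121 UMIs, median cell 161 CPM) and Fmod (708 UMIs, median cell 1624 CPM). The level of Kera was uneven between libraries in 1 group. In adventitial-fibroblast-like cells Kera was at 4.58 CPM in the pooled library and 60.2 CPM in the replicate 3 library, where 33.3% of its UMIs came from 1 cell. Thinned to 5000 UMIs, Kera was detected in 77.6% and 73.7% of tendon-lineage-like and in 1.30% and 10.4% of adventitial-fibroblast-like cells.

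Of these 4 groups, Dcn, Prelp and Podn were highest in adventitial-fibroblast-like cells. Dcn was measured there at 7839 and 8222 CPM, against 5865 and 6888 CPM in tendon-lineage-like cells and 3478 and 3322 CPM in injury-mesenchyme-like cells. Prelp was measured at 248 and 240 CPM in adventitial-fibroblast-like, 126 and 142 CPM in tendon-lineage-like and 53.9 and 69.6 CPM in injury-mesenchyme-like cells. Podn, reported to restrain growth of smooth muscle cells, was measured at 96.9 and 66.2 CPM in adventitial-fibroblast-like cells and at 22.1 to 38.1 CPM in the other groups. Aspn had its highest level, 2340 and 2339 CPM, in injury-mesenchyme-like cells, against 1519 and 1990 CPM in tendon-lineage-like and 615 and 1471 CPM in adventitial-fibroblast-like cells. Bgn varied least, from 3214 to 4222 CPM over the 4 groups and both libraries, and Lum from 1809 to 2662 CPM. Omd stayed between 7.0 and 16.4 CPM, with intervals that overlapped between all groups.

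**Figure D2:**
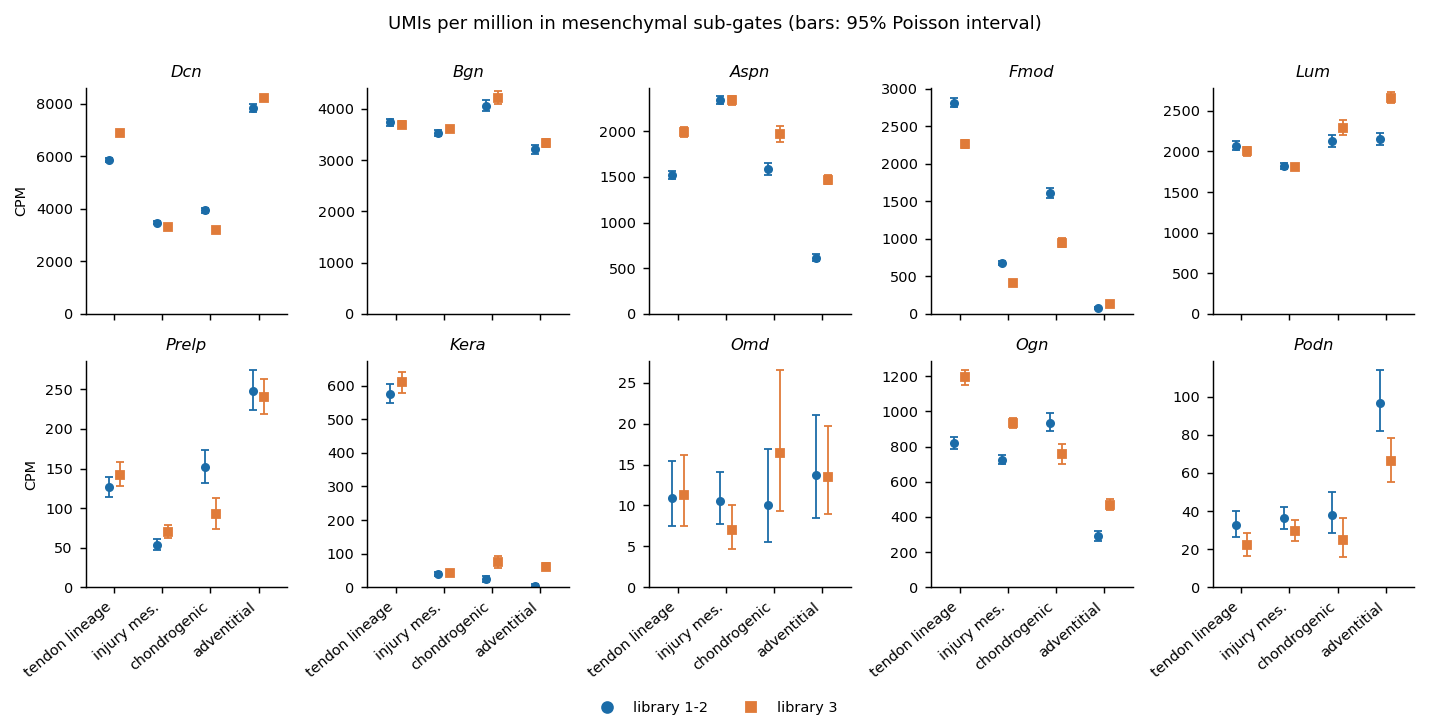
CPM of each SLRP in 4 groups of mesenchyme-like cells, 1 point per library with its exact 95% Poisson interval. Fmod and Kera are highest in tendon-lineage-like cells, Dcn, Prelp and Podn in adventitial-fibroblast-like cells, Aspn in injury-mesenchyme-like cells, and Bgn differs little.

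Tendon-lineage-like cells were then compared with adventitial-fibroblast-like cells over 10660 genes. The share of mitochondrial UMIs was 4.92% and 4.90% in the former and 3.24% and 3.08% in the latter, that of ribosomal UMIs 12.0% and 12.2% against 13.9% and 13.9%, and the median depth 49739 and 47442 against 33999 and 39365 UMIs, and their part in the differences was not tested. Fmod, Kera, Ogn and Aspn were higher (4 of 10, where 7.37% of all genes were higher) and Podn and Prelp were lower (2 of 10, where 10.6% were lower). The log2 fold change was 4.60 for Fmod (SE 0.34, edgeR adjusted p = 5.65e-05) and 4.37 for Kera (SE 0.59, adjusted p = 0.00118). It was 1.41 for Ogn (SE 0.21, adjusted p = 0.00214) and 0.81 for Aspn (SE 0.24, adjusted p = 0.0466). The call of Aspn was lost with DESeq2 (adjusted p = 0.0535) and its value was 0.39 without the pooled library and 1.35 without the replicate 3 library, and that of Kera 3.28 and 6.79. Podn was lower with -1.57 (SE 0.18, adjusted p = 0.00048) and Prelp with -0.87 (SE 0.23, adjusted p = 0.0282). Dcn (-0.34, SE 0.11, adjusted p = 0.0732), Bgn (0.18, SE 0.08), Lum (-0.24, SE 0.11) and Omd (-0.31, SE 0.34) did not pass, and Dcn passed in 4 of the alternatives. With the stricter gate 5 SLRPs were higher and 4 lower. The neighbours Dcn, Lum and Kera on chromosome 10 thus had -0.34, -0.24 and 4.37 in the same comparison, and the neighbours Aspn, Omd and Ogn on chromosome 13 had 0.81, -0.31 and 1.41.

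Injury-mesenchyme-like cells were set against both of these groups in comparisons added after the data were seen. Their gate markers included Postn (10327 and 11486 CPM) and Tnc (1943 and 2353 CPM). Col12a1, another of these markers, did not set them apart from tendon-lineage-like cells. Against adventitial-fibroblast-like cells its log2 fold change was 2.64 (SE 0.11) in injury-mesenchyme-like and 2.92 (SE 0.11) in tendon-lineage-like cells. Against tendon-lineage-like cells no SLRP was higher, where 2.05% of all genes were, and 4 of 10 were lower, where 2.31% of all genes were. These were Kera (log2 fold change -3.93, SE 0.54, edgeR adjusted p = 0.00541), Fmod (-2.29, SE 0.30, adjusted p = 0.00401), Prelp (-1.17, SE 0.23, adjusted p = 0.0235) and Dcn (-0.96, SE 0.12, adjusted p = 0.00329). Against adventitial-fibroblast-like cells, Fmod (2.31, SE 0.31), Aspn (1.20, SE 0.24) and Ogn (1.08, SE 0.21) were higher, where 4.79% of all genes were. Prelp (-2.04, SE 0.23), Podn (-1.36, SE 0.17), Dcn (-1.30, SE 0.12) and Lum (-0.46, SE 0.11) were lower, where 7.97% of all genes were. Without the pooled library these values were 1.67 for Fmod, 0.62 for Aspn and -0.61 for Lum, and without the replicate 3 library 3.18, 1.92 and -0.25. Here Aspn lost its call without the replicate block (adjusted p = 0.0681) and Lum with DESeq2 (adjusted p = 0.057). The comparisons share groups of cells, so they are not independent of each other. Markers of pericytes and smooth muscle summed to 1190 and 1256 CPM in injury-mesenchyme-like, 518 and 537 CPM in tendon-lineage-like and 237 and 157 CPM in adventitial-fibroblast-like cells, and their part in these differences was not tested.

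**Figure D3:**
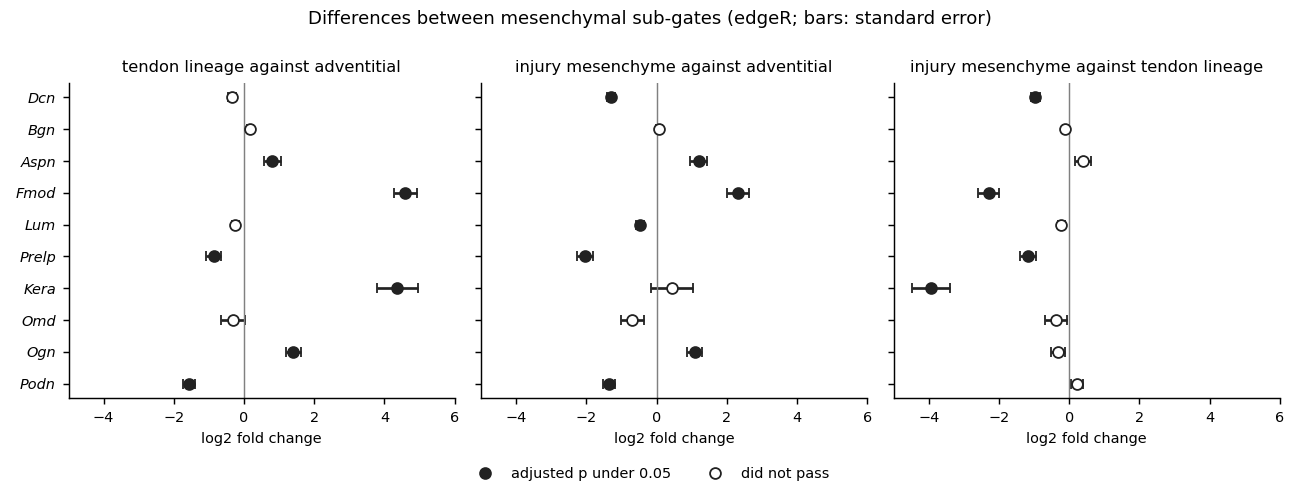
Log2 fold change of each SLRP in 3 comparisons of mesenchyme-like groups, with its standard error. Filled points have an edgeR adjusted p under 0.05: Fmod and Kera differ most in the comparisons with tendon-lineage-like cells, Fmod (2.31) and Prelp (-2.04) in injury-mesenchyme-like against adventitial-fibroblast-like cells, where Kera did not pass, and Bgn passed in none of the 3.

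The genes that SLRPs work with were taken from 5 lists, whose counts stand beside 7.37% of all genes higher and 10.6% lower in the same comparison. In tendon-lineage-like against adventitial-fibroblast-like cells, 3 of 6 tested members of the rest of the SLRP family were higher and 1 lower (median log2 fold change 0.85, against 0.01 over all genes tested). Chad (chondroadherin, a collagen-binding relative of class IV) was measured at 39.4 and 36.9 CPM in tendon-lineage-like cells and at 0 UMIs in adventitial-fibroblast-like cells, at least 20- and 24.5-fold higher with a floor of 3 counts per library. The lower relative was Epyc, with 0 and 1 UMIs in tendon-lineage-like against 4 and 66 UMIs in adventitial-fibroblast-like cells. Of 26 tested enzymes of glycosaminoglycan synthesis, 3 were higher and 1 lower (median 0.03). The higher ones included Chst5, a sulfotransferase that acts on keratan sulfate, the chain of class II, at 56.5 and 57.4 CPM against 0 and 2.0 CPM. They also included Chsy3, a chondroitin synthase, at 78.4 and 59.4 CPM against 18.3 and 12.5 CPM (log2 fold change 2.16, SE 0.20). The lower enzyme was B4galt1 (log2 fold change -0.93, SE 0.18).

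Of 11 collagens to which SLRPs bind, 6 were higher and 2 lower in tendon-lineage-like cells (median log2 fold change 0.53), and Col11a1 among the higher was itself a marker of the tendon-lineage gate. Col14a1, a collagen of the fibril surface, was lower, with 231 and 390 CPM against 1646 and 1307 CPM (log2 fold change -2.28, SE 0.23). Of 10 proteases and related proteins that process matrix, 2 were higher and 5 lower (median -0.82). Mmp13, a collagenase, was higher, with 189 and 703 CPM against 7.2 and 19.5 CPM (log2 fold change 4.99, SE 0.54). Adamts5, an aggrecanase, was lower, with 39.7 and 47.7 CPM against 360 and 300 CPM (log2 fold change -2.93, SE 0.20). Of 15 tested growth factors and receptors that SLRPs bind, 6 were higher and 3 lower (median 0.61), and those with the largest changes were Itga2, a collagen-binding integrin, higher with 23.6 and 26.1 CPM against 2.0 and 4.0 CPM (log2 fold change 2.97, SE 0.43), Met (2.76, SE 0.53) and Tgfbr2, a TGF-β receptor, lower with 111 and 115 CPM against 378 and 281 CPM (-1.54, SE 0.22). In mesenchyme-like cells against the other gated types, 11 of 11 collagens, 10 of 10 proteases and 22 of 27 enzymes of chain synthesis were higher, where 33.2% of all genes were. Among these collagens Col1a2, Col3a1, Col5a2 and Col6a3 were markers of the mesenchyme gate, so their higher level follows from the gate.

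On the tissue sections, each spot covers several cells, so fewer cells of a type and less RNA per cell cannot be told apart. Spots were gated on the markers summed over a spot and its 6 neighbours. The spots gated as tendon (81 in A1 and 83 in B1) had 0 and 2 UMIs of Tnmd, a defining tendon gene, but 1146 and 1159 CPM of Thbs4 and 888 and 1249 CPM of Scx, and are called Thbs4/Scx spots. Injury-mesenchyme spots numbered 39 and 53 and bone spots 95 and 110. The gate of the injury-mesenchyme spots rested on few UMIs of each marker. Postn had 21 and 48 UMIs (392 and 428 CPM), Tnc 42 and 95 UMIs (785 and 848 CPM) and Mest 4 and 0 UMIs. Markers of keratinocytes summed to between 5231 and 8569 CPM in these 3 kinds of spot, so RNA of other tissue was counted in them.

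Over all kept spots the SLRPs made up 0.211% and 0.174% of UMIs, and the order of the genes differed from that in cells. Bgn held 48.0% and 45.9% of the SLRP UMIs, Ogn 25.2% and 23.2% and Dcn 9.8% and 12.4%. Probes differ in efficiency between genes, so orders within a platform do not carry over. Genotype and the mix of tissues also differ between the cells and the sections. Kera had 12 and 29 UMIs, the fewest of all, and Aspn, Kera, Omd and Podn were below the filter on low counts.

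Bgn was highest in Thbs4/Scx spots (1598 and 1681 CPM) and injury-mesenchyme spots (1476 and 1446 CPM), and the intervals of these overlapped. It was lower in cartilage spots (1038 and 1071 CPM), keratinocyte spots (636 and 545 CPM) and neutrophil spots (75.2 and 186 CPM). Ogn had similar levels in Thbs4/Scx spots (791 and 743 CPM), adipocyte spots (785 and 826 CPM) and injury-mesenchyme spots (654 and 526 CPM). Prelp was found at 212 and 180 CPM in cartilage spots and reached 202 CPM in Thbs4/Scx spots of A1 but 49.0 CPM in those of B1. Dcn was measured at 226 and 424 CPM in Thbs4/Scx spots and at 280 and 393 CPM in injury-mesenchyme spots. As a share of all UMIs, the SLRPs ranged from 0.0414% and 0.0564% in neutrophil spots to 0.313% and 0.322% in Thbs4/Scx spots.

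**Figure D4:**
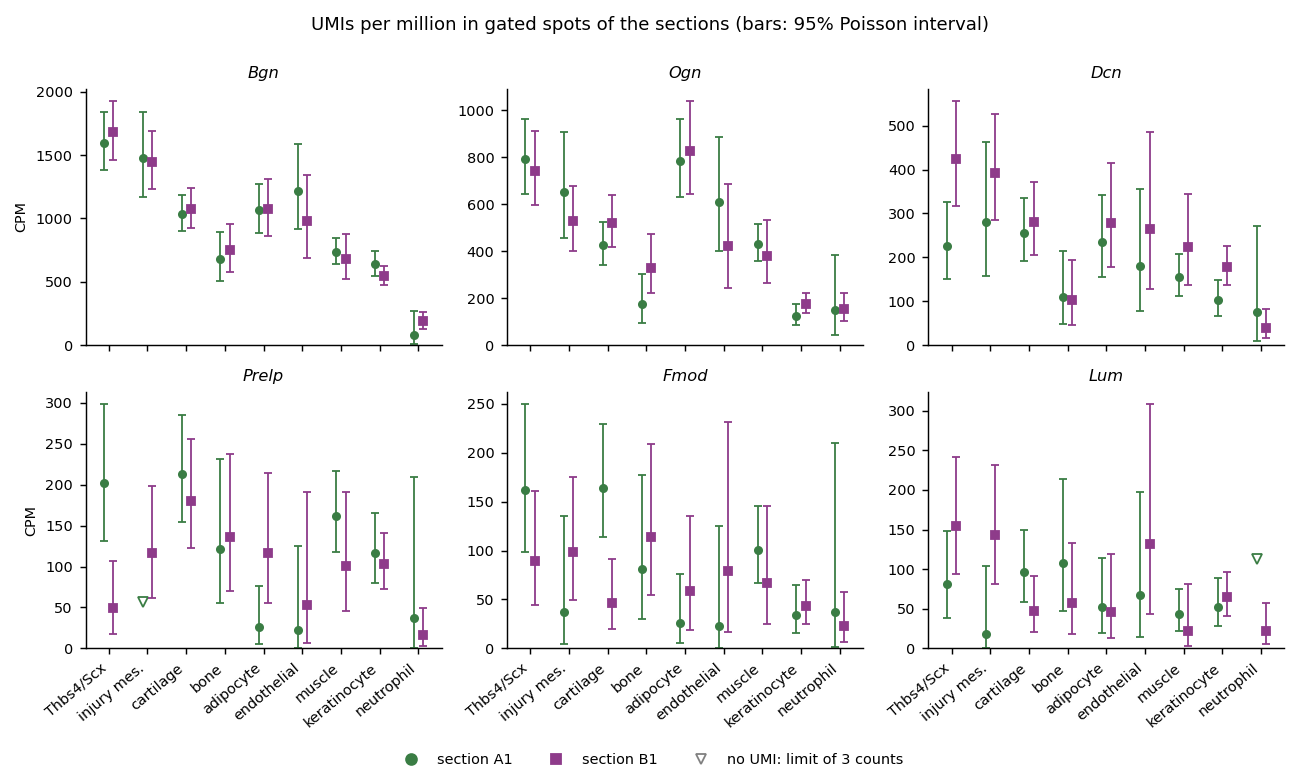
CPM of the 6 SLRPs with enough counts to be tested, in 9 kinds of gated spot of sections A1 and B1, with exact 95% Poisson intervals and an open triangle at 3 counts where no UMI was found. Bgn is highest in Thbs4/Scx spots (1598 and 1681 CPM) and injury-mesenchyme spots and lowest in neutrophil spots, and the intervals of Prelp, Fmod and Lum overlap between most kinds of spot.

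Injury-mesenchyme spots were compared with the mean of the other gated tissues over 4352 genes. Of the 6 SLRPs tested, Bgn was higher (log2 fold change 0.79, SE 0.18, edgeR adjusted p = 0.0015), where 2.05% of all genes were, and none was lower, where 0.873% of all genes were. Dcn had 0.86 (SE 0.27, adjusted p = 0.056) and did not pass. Among the partner genes, Chsy3 (1.00, SE 0.26), Tgfb3 (1.20, SE 0.28) and Col6a1 (0.75, SE 0.23) were higher.

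Bone spots had less Dcn and Bgn than injury-mesenchyme spots. Dcn was measured at 108 and 102 CPM in bone spots (log2 fold change -1.56, SE 0.43, edgeR adjusted p = 0.0159) and Bgn at 678 and 749 CPM (-0.90, SE 0.26, adjusted p = 0.0205), 2 of 6 SLRPs where 1.29% of all genes were lower. Neither call held in all settings, since Dcn was lost with DESeq2 (adjusted p = 0.053) and Bgn without the section as a block (adjusted p = 0.104). Ogn, at 176 and 329 CPM, had -1.04 (SE 0.33, adjusted p = 0.0542). No SLRP was higher, where 1.72% of all genes were, while Col1a1, the chain of the main bone collagen, was higher (0.68, SE 0.21). Cartilage markers summed to 7372 and 6229 CPM in bone spots and 2336 and 1678 CPM in injury-mesenchyme spots, and their part was not tested.

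Between Thbs4/Scx and injury-mesenchyme spots 0 of 6 SLRPs passed by edgeR, by DESeq2 or at an unadjusted p under 0.05, where 0.0689% of all genes were higher and 0.0919% lower. The log2 fold changes were 0.22 (SE 0.23) for Bgn, 0.47 (SE 0.27) for Ogn, 0.70 (SE 0.57) for Fmod and -0.01 (SE 0.33) for Dcn.

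Bgn was lower farther from both the injury-mesenchyme and the Thbs4/Scx spots. From injury-mesenchyme spots outward it was measured in A1 at 1476 CPM, then 1450 CPM at 1 step, 1292 CPM at 2 steps, 1080 CPM at 3 to 5 steps, 962 CPM at 6 to 10 steps and 916 CPM beyond 10 steps. In B1 the same distances gave 1446, 1348, 1056, 822, 647 and 587 CPM. From Thbs4/Scx spots outward Bgn went from 1598 to 862 CPM in A1 and from 1681 to 611 CPM in B1. Around bone spots the order was the other way at short range, with Bgn at 678 and 749 CPM inside and 1013 and 1055 CPM at 1 step, and Ogn at 176 and 329 CPM inside and 457 and 543 CPM at 2 steps. These rings are a description, since neighbouring spots share tissue and the gates themselves pool neighbours.

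**Figure D5:**
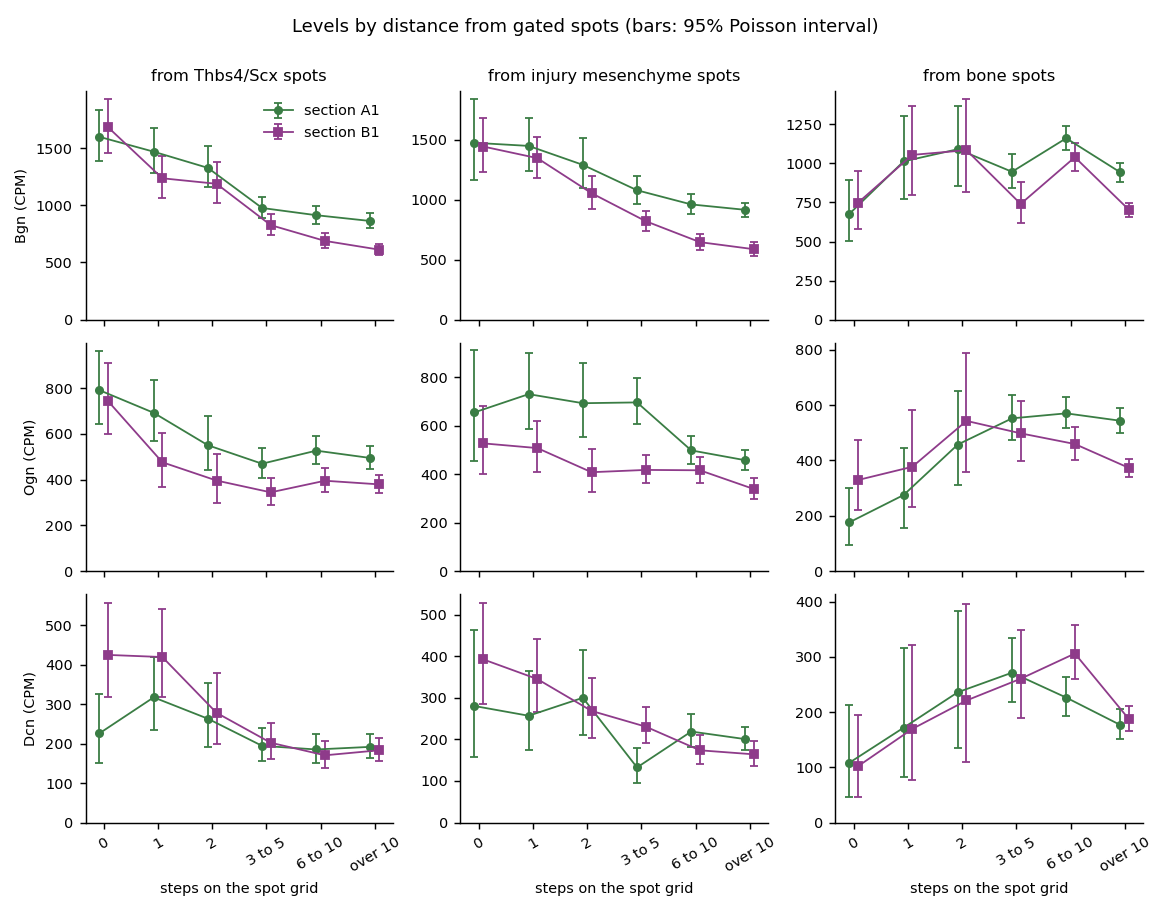
CPM of Bgn, Ogn and Dcn against steps on the grid of spots from Thbs4/Scx, injury-mesenchyme and bone spots in sections A1 and B1, with exact 95% Poisson intervals. Bgn goes from 1476 and 1446 CPM at injury-mesenchyme spots to 916 and 587 CPM beyond 10 steps, and all 3 genes are lower inside bone spots than at 2 steps from them.

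The Moran's I score that the authors deposited, which rises when neighbouring spots have like values, placed Ogn at 0.0798 and 0.0863 (rank 114 of 19132 and 208 of 19222 genes) and Bgn at 0.0602 and 0.107 (ranks 165 and 153). Prelp (0.0309 and 0.0376, ranks 468 and 642) came next. Dcn was at 0.0092 in A1 and 0.0338 in B1 (ranks 2571 and 747), and Kera at 0.0182 and -0.00164 (ranks 1039 and 14336). Aspn (0.0070 and 0.0030) and Omd (0.0026 and 0.0067) were near 0 in both sections.

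Across the 12 sums of cell types, the log-scale levels of all 45 pairs of SLRPs had positive Pearson correlations (0.60 to 0.98, median 0.87). Within mesenchyme the pattern differed, as 22 of 45 pairs were positive over the 8 sums of 4 groups, with 0.87 for Fmod with Ogn, 0.85 for Dcn with Prelp and 0.74 for Fmod with Kera, but -0.93 for Ogn with Podn and -0.84 for Fmod with Podn. Over the 18 sums of tissue spots 32 pairs were positive, with 0.81 for Dcn with Bgn. These points share libraries, depth and gates and are described without a test. Of 8874 genes, the pattern over cell types most like that of Bgn was Kdelr3 (r = 0.996 over 12 sums), that of Aspn was C1qtnf2 (0.99), that of Fmod was Lrrc17 (0.99), that of Ogn was Tnfaip6 (0.99) and that of Podn was Col6a2 (0.99). Kera was most like Pdgfra (0.99), a gate marker, and then Ucma (0.98).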

How the data were processed

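Cells were counted with Cell Ranger 5.0.1 (Single Cell 3′ v3, mm10) and the probes on the fixed sections with Space Ranger 2.0.1. The authors deposited UMI counts, not normalized, for called cells and for spots over tissue, and a Moran's I score of spatial clustering per gene, which was used as deposited. Columns of the authors' own comparisons were not used.

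Cells with over 20% mitochondrial UMIs, under 5% ribosomal UMIs, under 200 genes, or UMIs or genes past the 99th percentile were removed, as were spots under 100 UMIs. No doublet caller was run. The gate leaves out cells in which no type leads by 20 percentage points, except that pericyte-like cells needed no lead over mesenchyme. Cells with some markers of 2 types can therefore remain. Mesenchymal groups and spots were gated where their marker UMIs were above the sample-wide rate at a Poisson upper tail under 0.001. The members, lists and markers were chosen with earlier results of these data known, and the gate thresholds, the pooling of neighbouring spots and the Pdgfra rule were set after seeing the data.

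UMIs were summed by sample and gated class (minimum 20 cells or spots per sample) and fitted with edgeR 4.0.16 in R 4.3.3, using TMM, its filter on low counts, a block for each library or section, whose groups come from the same tissue, and Benjamini-Hochberg adjustment across the genes tested (threshold 0.05). CPM have exact 95% Poisson intervals for counting error, with 3 counts as the limit where no UMI was found. Correlations used log2(CPM + 1) of genes with a mean of at least 10 CPM. Alternatives were DESeq2 1.42.0, no filter, no block, classes from clusters (scanpy 1.11.5), a stricter gate, no ribosomal limit, spots with at least 300 UMIs and each sample left out. All members were named, and from each partner list at most 3 genes with the largest change past the threshold and in both samples. In simulated counts the fits recovered 99%, 90% and 63% of 4-fold changes for cell types, mesenchymal groups and spots. Of the genes called there, 4.81%, 3.74% and 6.67% were false. All classes of a simulation shared the same gene profile and a common dispersion, so these rates may not hold for the real counts.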

Additional observations from a re-analysis of the deposited data

How the results depend on the processing

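The 10 calls for mesenchyme-like cells, the 8 for pericyte-like cells and the single call of Bgn in injury-mesenchyme spots held under every alternative with a test. The number of SLRPs called in bone spots dropped from 2 to 1 with DESeq2 and with no replicate block (section as block). Calls were also gained. With the stricter gate, 5 SLRPs were higher and 4 lower in tendon-lineage-like against adventitial-fibroblast-like cells. With classes from clusters, 4 were higher and 5 lower in injury-mesenchyme-like against adventitial-fibroblast-like cells. Injury-mesenchyme-like against tendon-lineage-like cells gave 5 lower with clusters and 1 higher with no filter. The median share of mesenchyme-like cells with a UMI was 65.8% after thinning and 79.2% without. Without the replicate block, Aspn lost its call in both comparisons with adventitial-fibroblast-like cells (log2 fold changes 0.73 and 1.09) and Bgn in bone spots (-0.90), and no other SLRP changed its call. Values that changed sign had not passed the test. With classes from clusters these were Lum for tendon-lineage-like against adventitial-fibroblast-like cells (0.0906), Podn for injury-mesenchyme-like against tendon-lineage-like cells (-0.124) and Bgn for injury-mesenchyme-like against adventitial-fibroblast-like cells (-0.0982). With 1 library left out, Kera in the last of these ranged from -0.51 to 2.89. For Thbs4/Scx against injury-mesenchyme spots, Dcn was 0.029 with no filter, and with 1 section left out Dcn ranged from -0.0783 to 0.111, Fmod from -0.109 to 1.90 and Prelp from -1.04 to 3.81. For bone spots, Lum was 0.0155 with DESeq2, 0.0788 at 300 UMIs per spot, and -1.27 to 1.88 with 1 section left out. For injury-mesenchyme spots against other tissues, leaving out 1 section gave -0.69 to 0.69 for Fmod, -1.10 to 1.22 for Lum and -2.71 to 0.55 for Prelp. Over all genes, the number called higher and lower moved by over 1.5 times in some settings. In tendon-lineage-like against adventitial-fibroblast-like cells it was 786 and 1131, and 510 and 767 with DESeq2. In injury-mesenchyme-like against adventitial-fibroblast-like cells it was 511 and 850, with DESeq2 334 and 557, with no filter 926 and 1124, and with clusters 1360 and 1779. Against tendon-lineage-like cells it was 218 and 246, with no filter 640 and 545, with clusters 421 and 614, and with the stricter gate 335 and 331. In bone spots it was 75 and 56, with DESeq2 38 and 28, and without the block 59 and 27. In injury-mesenchyme spots it was 89 and 38, with DESeq2 48 and 14, with no filter 78 and 15, and without the block 34 and 11. In Thbs4/Scx spots it was 3 and 4, with DESeq2 or without the block 1 and 0, and with no filter 3 and 0. For mesenchyme-like cells the split of 4077 and 2067 became 5404 and 1643 with no filter, and the all-gene median went from 0.11 to 0.40 on the log2 scale. The causes were not tested. The stricter gate left 5 injury-mesenchyme spots in A1 and 21 in B1, where at least 20 per section were needed. Every comparison of spots uses this class, so none was fitted with that gate. It left 25 and 38 Thbs4/Scx spots and 54 and 85 bone spots. Leaving out a sample gave values without a test. In counts simulated for the sections with a common dispersion 63% of 4-fold changes were recovered, and 4 SLRPs had too few probe counts to test.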
